A study of Mus musculus with 6 samples.

Results

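The CC chemokines that draw monocytes and related white cells into tissue were measured, cell class by cell class, in the mouse genioglossus, the tongue muscle that helps to hold the upper airway open. The 9 genes are the 8 ligands Ccl2, Ccl7, Ccl8, Ccl11, Ccl3, Ccl4, Ccl6 and Ccl9 and the receptor Ccr2. They are 9 of the 33696 genes in the count tables, and all 9 were found. They were picked by symbol for what they are known to do, with earlier results of these data already known. The samples were male mouse genioglossus from a group labelled OSA-4W, where OSA is obstructive sleep apnea, in which the airway of a sleeper closes again and again, and from a control group, with 3 libraries each. All 6 libraries carried the label of batch 1 and were made from primary tissue on a droplet platform that tags each messenger RNA with a unique molecular identifier (UMI). The muscles of both groups were taken 4 weeks after OSA was modelled. The labels do not say how OSA was modelled, the strain, the age, or whether the libraries came from different animals. P-values therefore measure only the spread between these libraries, which may be technical. Counts were read for OSA replicates 1, 2 and 3 and for control replicate 2. The counts of the other control libraries were not analysed here.

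A chemokine is a small secreted protein that makes cells bearing its receptor move toward it. Ccl2, Ccl7 and Ccl8 belong to the monocyte chemoattractant proteins, and Ccl2 and Ccl7 bind Ccr2, the receptor that inflammatory monocytes use to leave the bone marrow and enter tissue. Ccl11, called eotaxin, acts on Ccr3 of eosinophils. Ccl3 and Ccl4 are macrophage inflammatory proteins, and Ccl3, Ccl6 and Ccl9 act on Ccr1. In injured skeletal muscle, macrophages, fibroblasts and satellite cells, the muscle stem cells, are known sources of such ligands.

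All 8 ligand genes lie on chromosome 11, and Ccr2 lies on chromosome 9. In the RefSeq order of coding genes Ccl2, Ccl7 and Ccl11 followed each other, and Ccl12 stood between Ccl11 and Ccl8. In a second run Ccl9, Ccl6, Ccl3 and Ccl4 followed each other. The promoters of the neighbours Ccl6 and Ccl9 are shown because both genes were read mainly from macrophages. Each window holds 250 bases before and 50 after the start site, 5′ to 3′, from RefSeq on build GRCm38.p6, on the minus strand at chr11:83593038-83593337 for Ccl6 and chr11:83578587-83578886 for Ccl9. Capitals mark the longest run of letters that both windows hold.
Ccl6: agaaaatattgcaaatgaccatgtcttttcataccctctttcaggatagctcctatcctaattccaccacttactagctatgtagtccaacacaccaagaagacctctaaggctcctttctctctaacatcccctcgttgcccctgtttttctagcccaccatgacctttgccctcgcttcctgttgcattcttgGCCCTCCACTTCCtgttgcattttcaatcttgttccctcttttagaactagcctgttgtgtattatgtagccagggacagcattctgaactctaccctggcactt
Ccl9: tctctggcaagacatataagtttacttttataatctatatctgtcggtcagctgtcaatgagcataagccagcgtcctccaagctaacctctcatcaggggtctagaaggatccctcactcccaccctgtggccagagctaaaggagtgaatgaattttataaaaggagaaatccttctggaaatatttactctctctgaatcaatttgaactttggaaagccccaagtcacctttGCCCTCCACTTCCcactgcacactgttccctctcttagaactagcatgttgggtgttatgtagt
The shared run is 13 bases long and begins 55 bases before the Ccl6 start site and 14 bases before the Ccl9 start site. On either strand it occurred in 6 of 32851 promoters (0.0183%). It contains ACTTCC, which reads GGAAGT on the other strand, a core that ETS factors such as the myeloid factor PU.1 bind. GGAAGT on either strand was in the windows of Ccl3, Ccl6 and Ccl9, which are 3 of the 5 members in the promoter table, and in 23.8% of all promoters. These matches are a description of letters and not of binding.

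The libraries had similar depth, with 78935595, 74007957 and 82184913 UMIs in OSA replicates 1, 2 and 3 and 70217449 in control replicate 2. After filtering and removal of called doublets, 12229 to 15218 cells remained in each OSA library and 13216 in the control library. Clusters were built without any CC chemokine or receptor gene and named from marker lists, and a class name ends in "-like" because it rests on transcripts. The tissue is labelled skeletal muscle cells, but satellite-like cells were 2.11% to 2.35% of OSA cells and 2.06% of control cells, and myofibre-like cells 0.421% to 1.496% and 0.272%. Named immune classes made up 5.11%, 9.39% and 15.8% of the cells of OSA replicates 1, 2 and 3 and 3.65% of those of the control. Pairs of the 6 libraries shared at most 0.468% of the barcodes of the smaller library. Levels are given as CPM, the UMIs of a gene scaled by all UMIs of its class in the library to the usual fixed total. They compare libraries and classes, and not genes with each other.

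Fibroblast-like cells held most of the Ccl11 transcripts and the largest named share of Ccl7 and Ccl2. Of the Ccl11 UMIs, 86.6%, 89.4% and 80.9% came from fibroblast-like cells in OSA replicates 1, 2 and 3 and 93.5% in the control. Of the Ccl7 UMIs, 55.1%, 66.4% and 42.3% came from them in the OSA libraries and 72.6% in the control. Of the Ccl2 UMIs, 41.1%, 62.2% and 34.0% came from them in the OSA libraries and 64.7% in the control. Within the named class the control share was the highest for all 3 genes, and OSA replicate 3 had the lowest. These shares leave out the unnamed cluster described next, which met the fibroblast list and was largest in OSA replicate 3. The order of the libraries therefore depends on how that cluster is named.

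A cluster that was left unnamed held much of the remainder in OSA replicate 3. It was led by Saa3 and Timp1 and met the fibroblast list with 4 markers. It was left unnamed because Hp, a listed monocyte marker, and no fibroblast marker stood among its 10 leading genes. With CC family genes allowed in clustering, a cluster led by Sfrp2 and Saa3 was named fibroblast-like. From another random seed, so was a cluster with Timp1 and Serpina3n among its leading genes. The unnamed cluster numbered 76, 19 and 680 cells in OSA replicates 1, 2 and 3 and 4 cells in the control. It held 12.5%, 0.925% and 29.7% of the Ccl2 UMIs in the OSA libraries and 0.129% in the control. For Ccl8 its share was 2.88%, 0.883% and 39.6% in the OSA libraries and 0% in the control, where its 4 cells had no Ccl8 UMI. It held 13.7%, 1.18% and 31.7% of the Ccl7 UMIs of the OSA libraries and 0.0945% of those of the control. Ccl8 stood at 27.4, 15.6 and 119 CPM in this cluster in OSA replicates 1, 2 and 3.

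**Figure D1:**
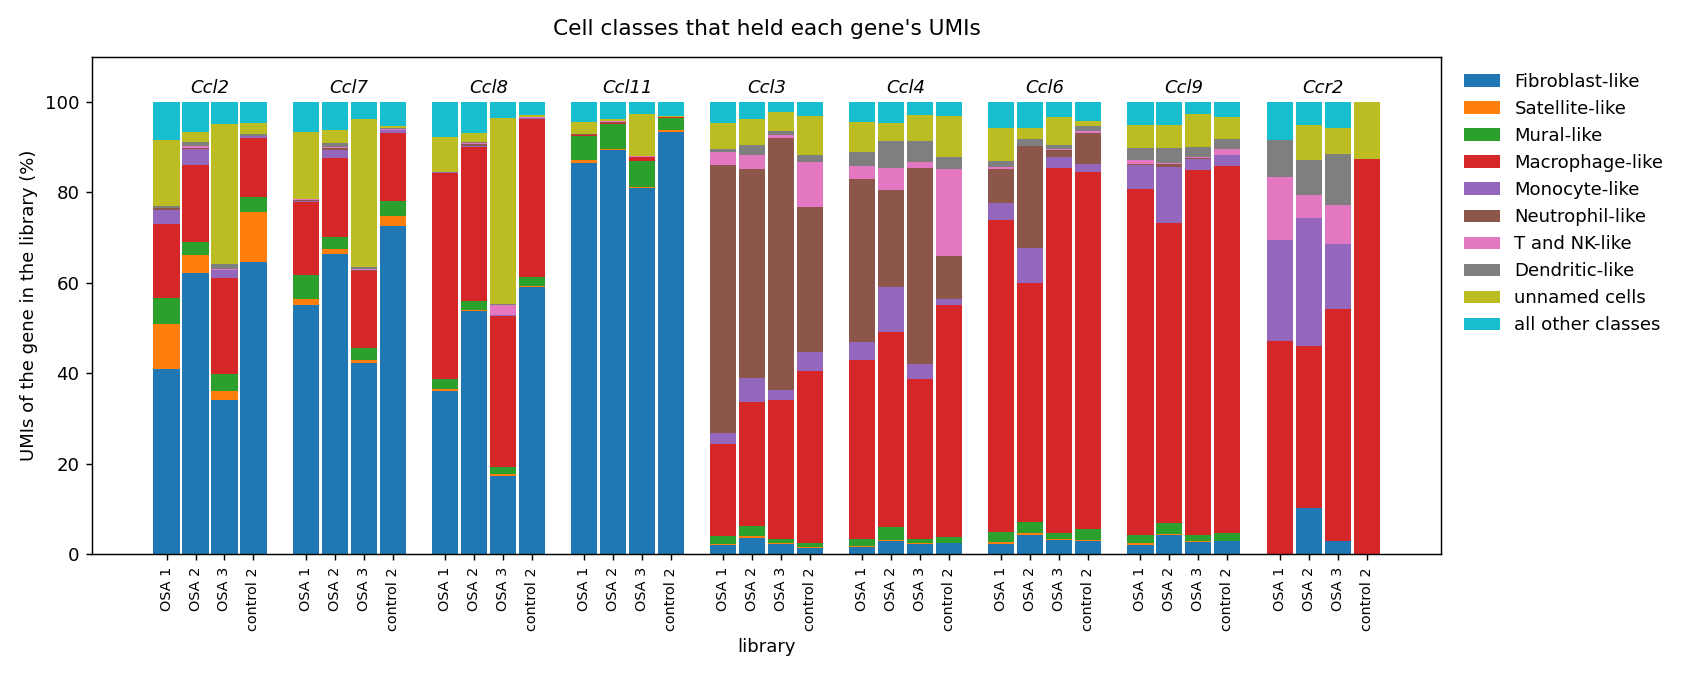
Share of each gene's UMIs (y axis, percent of the gene's UMIs in a library) by cell class, for OSA replicates 1 to 3 and control replicate 2 (x axis). Ccl11 came mostly from fibroblast-like cells (80.9% to 89.4% in OSA and 93.5% in control), Ccl9 mostly from macrophage-like cells (66.4% to 80.7% in OSA and 81.1% in control), and Ccr2 rests on 35 to 39 UMIs per OSA library and 8 in the control.

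Ccl8 was divided between fibroblast-like and macrophage-like cells. Fibroblast-like cells held 36.1%, 53.7% and 17.4% of its UMIs in the OSA libraries and 59.0% in the control. Macrophage-like cells held 45.6%, 34.1% and 33.4% in the OSA libraries and 34.9% in the control. Ccl9 and Ccl6 came chiefly from macrophage-like cells. Their share of the Ccl9 UMIs was 76.5%, 66.4% and 80.7% in the OSA libraries and 81.1% in the control. Their share of the Ccl6 UMIs was 68.9%, 52.7% and 80.6% in the OSA libraries and 78.9% in the control. OSA replicate 2 had the lowest share for both, and there neutrophil-like cells held 22.6% of the Ccl6 UMIs.

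Neutrophil-like cells were the leading source of Ccl3 in the OSA libraries, with 59.3%, 46.1% and 55.7% of its UMIs in replicates 1, 2 and 3 against 32.2% in the control. Macrophage-like cells held 20.3%, 27.5% and 30.8% of the Ccl3 UMIs in the OSA libraries and 37.9% in the control, where they led. Ccl4 came from macrophage-like cells (39.4%, 43.2% and 35.3% in the OSA libraries and 51.3% in the control) and from neutrophil-like cells (36.0%, 21.4% and 43.3% in the OSA libraries and 9.41% in the control). T and NK-like cells held 3.04%, 5.01% and 1.27% of the Ccl4 UMIs in the OSA libraries and 19.3% in the control. These shares move with the number of cells of a class as well as with the level in it. Neutrophil-like cells numbered 184, 500 and 246 in the OSA libraries and 42 in the control, and macrophage-like cells 394, 414 and 1545 in the OSA libraries and 203 in the control.

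**Figure D2:**
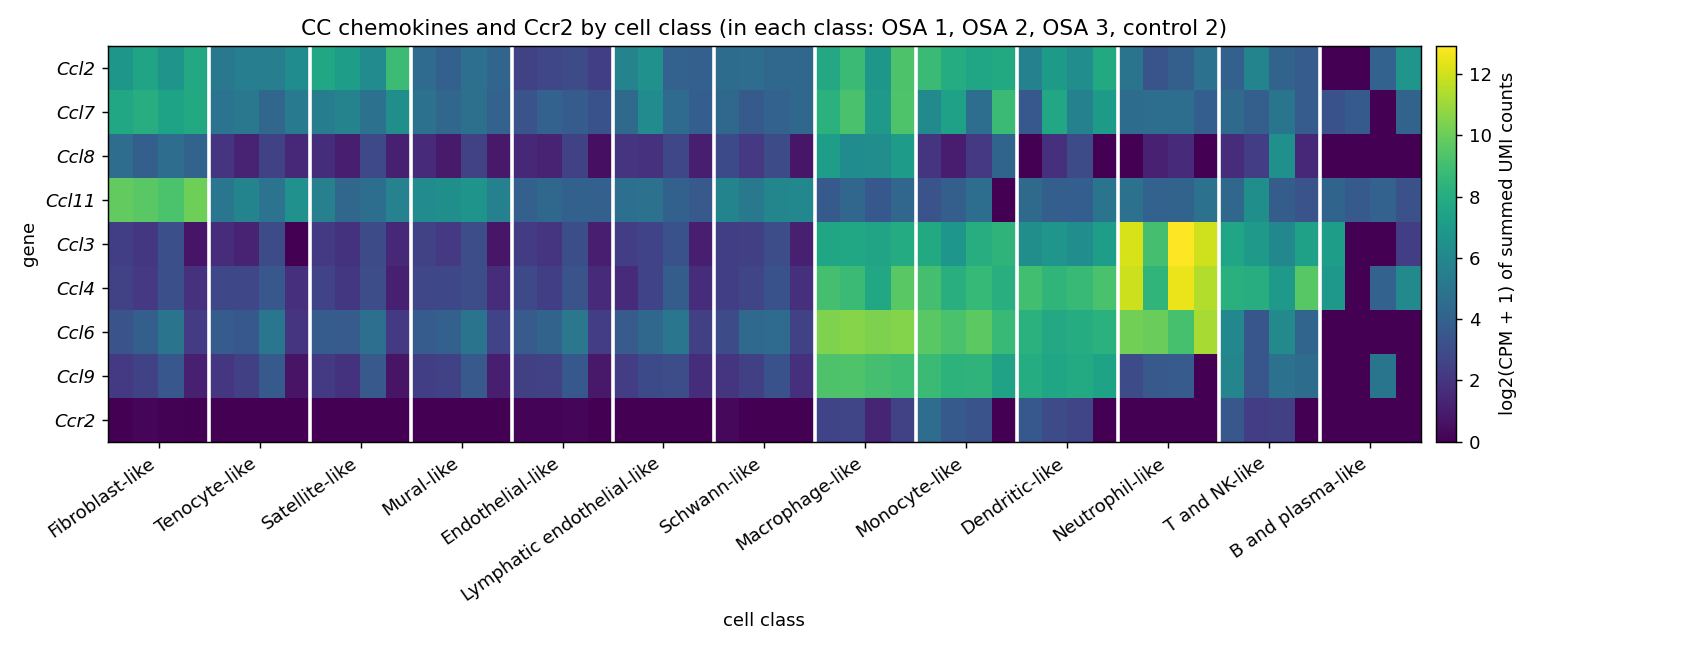
Level of each gene (rows) as log2(CPM + 1) of summed UMI counts (colour) in 13 cell classes, with 4 columns per class for OSA replicates 1, 2 and 3 and control replicate 2. Ccl3 was brightest in neutrophil-like cells, at 557 to 7751 CPM in OSA and 4127 CPM in the control, Ccl11 in fibroblast-like cells, and Ccr2 was dark in most classes.

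Summed over all kept cells, Ccl9, Ccl6 and Ccl3 were higher in every OSA library than in the control, and none of the 9 genes was called. Ccl9 stood at 37.7, 34.9 and 101.8 CPM in the OSA libraries and 12.9 CPM in the control. Ccl6 stood at 90.4, 101 and 247 CPM in the OSA libraries and 40.05 CPM in the control. Ccl3 stood at 44.3, 27.5 and 89.8 CPM in the OSA libraries and 14.4 CPM in the control. OSA replicate 3 was the highest for each. Of the 18550 genes with at least 10 UMIs in every library, 18.1% were higher and 32.5% lower in every OSA library than in the control, so that not overlapping is a common outcome with 1 control. The log2 differences were 2.33 ± 0.86 for Ccl9, 2.02 ± 0.79 for Ccl6 and 2.06 ± 0.81 for Ccl3 (SE), each with an adjusted p of 0.989 in edgeR's quasi-likelihood test. Without OSA replicate 2, Ccl3 was called at a log2 difference of 2.39 ± 0.47 (edgeR adjusted p = 0.00273), beside 196 of 20778 genes (0.943%).

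Ccl11 and Ccl2 were lower over all kept cells in every OSA library, at 233, 271 and 199 CPM against 356 CPM in the control for Ccl11. For Ccl2 the levels were 62.1, 93.5 and 78.9 CPM in the OSA libraries and 106 CPM in the control. The log2 differences were -0.51 ± 0.22 for Ccl11 and -0.32 ± 0.30 for Ccl2 (edgeR adjusted p = 0.989 each). Ccl4 was at 62.3, 37.1 and 88.3 CPM in the OSA libraries and 33.1 CPM in the control. Ccl7 (85.7, 122 and 112 CPM in the OSA libraries and 95.8 CPM in the control) and Ccl8 (14.8, 8.02 and 35.6 CPM and 8.62 CPM) had control values inside the OSA range. In this fit 0 of 20884 genes were called by edgeR (0%), 663 reached an unadjusted p under 0.05, 4 of them members, while DESeq2 called 136 genes (0.651%) but 0 members. A sum over all cells cannot tell apart more cells of a class and more transcripts in each cell. With 1 control library the spread comes from the OSA libraries, the control is assumed to vary like them, and an exact permutation test of 1 library against 3 cannot go below 0.25. Where 1 OSA library was left out, the spread came only from those that remained. Calls in such fits, here and below, show how a result depends on a library and are not firmer support.

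In fibroblast-like cells Ccl11 and Ccl2 were lower in every OSA library and Ccl7 was near the control level. Ccl11 was at 890.2, 779.6 and 616 CPM in the OSA libraries and 1083 CPM in the control, and averaged 762 ± 138 CPM in OSA (SD, n = 3). Ccl2 was at 113, 187 and 103 CPM in the OSA libraries and 222 CPM in the control. The groups do not overlap for either gene, as for 25.1% of 14497 genes that were lower in every OSA library in this class (at least 10 UMIs in every library). On the log2 scale the difference was -0.48 ± 0.27 for Ccl11 and -0.70 ± 0.28 for Ccl2 (edgeR adjusted p = 0.9995 and 0.973). Of the 8 members tested 0 were called by edgeR, beside 12 of 16603 genes (0.0723%), while 4 members and 747 genes reached an unadjusted p under 0.05 and the DESeq2 alternative called Ccl3, beside 26 genes (0.157%).

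Ccl7 in fibroblast-like cells was at 208, 260.0 and 181 CPM in the OSA libraries and 227 CPM in the control, which lay inside the OSA range (log2 difference of -0.04 ± 0.25, edgeR adjusted p = 0.9995). Ccl8 was at 23.6, 13.9 and 23.7 CPM in the OSA libraries and 16.6 CPM in the control, also inside. When the unnamed Saa3 cluster was added to the class, an alternative chosen after the data were seen, the log2 difference was 0.97 ± 1.185 for Ccl8, -0.60 ± 0.31 for Ccl11, -0.50 ± 0.26 for Ccl2 and 0.13 ± 0.25 for Ccl7, and none was called.

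The class was made of 2 clusters, and Ccl11 was lower in the second of them in every library. In the cluster led by Smoc2 and Myoc, Ccl11 was at 1113, 1088 and 1101 CPM in the OSA libraries and 1444 CPM in the control. In the cluster led by Cxcl13 and Pcolce2 it was at 535, 396 and 329.9 CPM in the OSA libraries and 689 CPM in the control. The Smoc2 cluster held 63.6%, 57.2% and 41.1% of fibroblast-like cells in the OSA libraries and 54.5% in the control. Within that cluster alone the log2 difference was -0.37 ± 0.27 for Ccl11 and -0.98 ± 0.29 for Ccl2 (edgeR adjusted p = 0.999 and 0.477). Ccl2 there was at 85.5, 157 and 89.3 CPM in the OSA libraries and 221.5 CPM in the control, while in the Cxcl13 cluster it was at 156, 224 and 110.5 CPM in the OSA libraries and 223.5 CPM in the control.

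**Figure D3:**
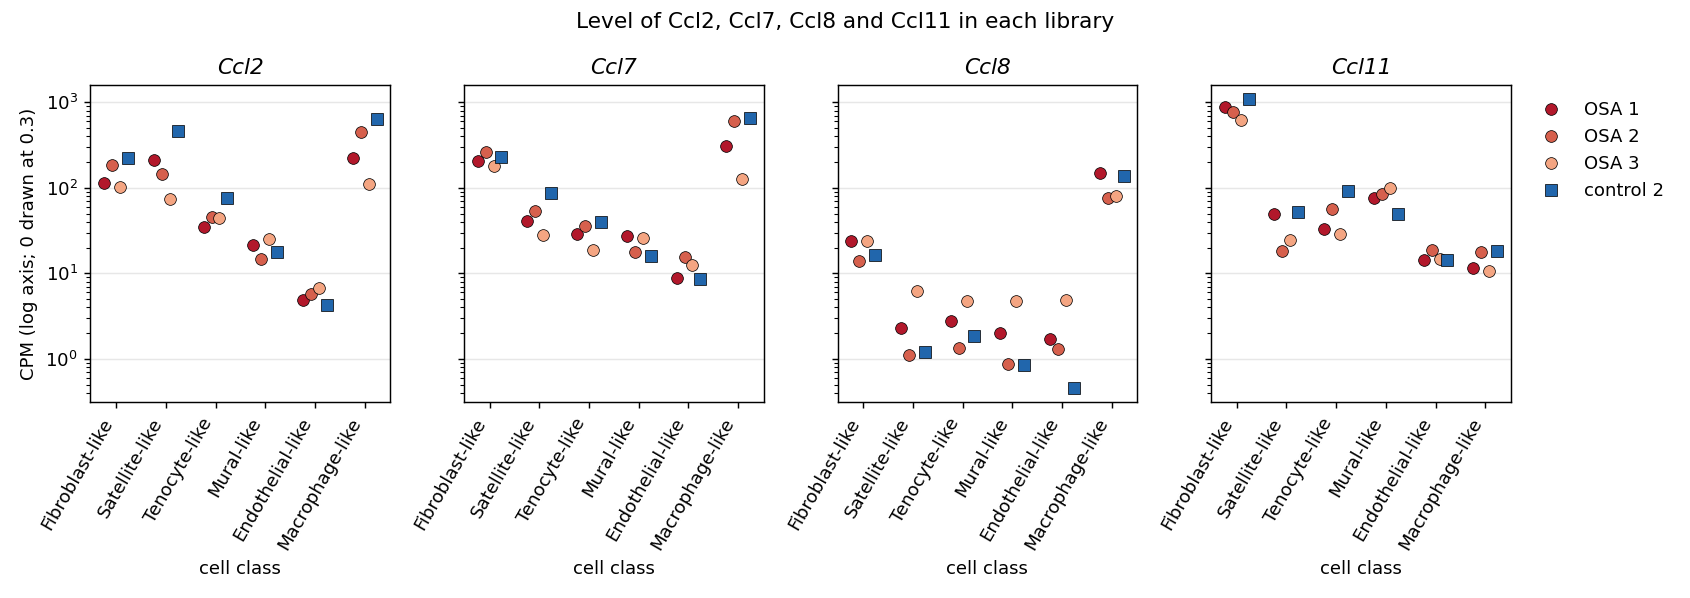
Level of Ccl2, Ccl7, Ccl8 and Ccl11 (y axis, CPM on a log axis) in 6 cell classes (x axis), with circles for OSA replicates 1 to 3 and squares for control replicate 2. In satellite-like cells the OSA circles for Ccl2 lie at 211, 145 and 74.3 CPM, all under the control square at 457 CPM, while in mural-like cells the OSA circles for Ccl11 lie above the control square.

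Satellite-like cells carried less Ccl2 and Ccl7 in every OSA library than in the control, and neither difference was called. Ccl2 was at 211, 145 and 74.3 CPM in the OSA libraries and 457 CPM in the control. Ccl7 was at 41.3, 53.8 and 28.1 CPM in the OSA libraries and 86.6 CPM in the control. The groups do not overlap for either gene, and OSA replicate 3 was the lowest for both. In this class 26.6% of 8991 genes with at least 10 UMIs in every library were lower in every OSA library. On the log2 scale OSA minus control was -1.68 ± 0.47 for Ccl2 and -1.07 ± 0.28 for Ccl7 (edgeR adjusted p = 0.684 and 0.168). In this class 0 of 8 members were called by edgeR, beside 10 of 11025 genes (0.0907%), with 4 members and 686 genes at an unadjusted p under 0.05 and 0 members called by DESeq2 (0.0726% of genes). Ccl2 was called without OSA replicate 1 at -2.01 ± 0.27 and without OSA replicate 2 at -1.68 ± 0.27 (edgeR adjusted p = 7.28e-10 and 1.04e-06). Ccl7 was called without OSA replicate 2 at -1.30 ± 0.29 (edgeR adjusted p = 0.00303). Ccl6, at 12.7, 12.1 and 25.3 CPM in the OSA libraries and 3.56 CPM in the control, was called without OSA replicate 1 at 2.44 ± 0.61 and without OSA replicate 2 at 2.41 ± 0.61 (edgeR adjusted p = 0.0170 and 0.0152). Over all genes of the class 63 of 10744 (0.586%) were called without OSA replicate 1 and 91 of 10845 (0.839%) without OSA replicate 2.

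After each satellite-like cell was thinned to 1000 UMIs, a Ccl2 UMI was found in 10.9%, 5.93% and 5.94% of cells in the OSA libraries and 18.8% in the control. Before thinning these shares were 21.8%, 20.1% and 11.8% in the OSA libraries and 30.1% in the control, at median depths of 5522, 6164 and 4668.5 UMIs per cell in the OSA libraries and 5866.5 in the control. Endothelial-like cells, taken as a class with little Ccl2, had a UMI in 0.402%, 0.664% and 0.726% of thinned cells in the OSA libraries and 0.418% in the control, at median depths of 3257 to 3805 UMIs in the OSA libraries and 3413.5 in the control. Endothelial-like cells had the lowest Ccl2 level of the 7 stromal classes in every library, so they set a low bar. Satellite-like cells were above this level in all 4 libraries. Fibroblast markers in them summed to 1260, 942 and 1336 CPM in the OSA libraries and 1273 CPM in the control, so the control lay inside the OSA range. Macrophage markers summed to 50.4, 43.9 and 160 CPM in the OSA libraries and 34.99 CPM in the control, the lowest, with at most 1 of the 8 at 0 in a library.

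The difference in Ccl7 between OSA and control was larger in satellite-like than in fibroblast-like cells. Satellite-like minus fibroblast-like gave a log2 difference of -1.03 ± 0.23 (edgeR's test of the interaction with library as a block, adjusted p = 0.00958). In that test 1 of 8 members was called, beside 44 of 16437 genes (0.268%), and this pair of classes was compared after the values had been seen. Without OSA replicate 3 the difference was -0.93 ± 0.25 and was no longer called (edgeR adjusted p = 0.188). With the Saa3 cluster counted as fibroblast-like it was -1.21 ± 0.25 (edgeR adjusted p = 0.0122). For Ccl2 the same difference was -0.98 ± 0.77 (edgeR adjusted p = 0.975), and without OSA replicate 1 it was -1.47 ± 0.20 and called (edgeR adjusted p = 2.40e-09), beside 93 of 16211 genes (0.574%).

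Mural-like cells, which wrap blood vessels, had more Ccl11 in every OSA library. It was at 75.2, 85.1 and 100.5 CPM in the OSA libraries and 49.5 CPM in the control, and averaged 86.9 ± 12.8 CPM in OSA (SD, n = 3). Of 13753 genes with at least 10 UMIs in every library of the class, 21.7% were higher in every OSA library. OSA minus control on the log2 scale was 0.86 ± 0.24 (edgeR adjusted p = 0.480), which was called without OSA replicate 1 at 0.98 ± 0.26 and without OSA replicate 3 at 0.70 ± 0.16 (edgeR adjusted p = 0.0248 and 0.0105), beside 138 of 15827 genes (0.872%) and 147 of 15972 genes (0.920%). Of the 8 members tested 0 were called by edgeR, beside 9 of 16047 genes (0.0561%), with 5 members and 783 genes at an unadjusted p under 0.05 and Ccl3 and Ccl9 called by DESeq2, beside 23 genes (0.143%). Fibroblast markers in mural-like cells moved the same way, summing to 1031, 865 and 1439.7 CPM in the OSA libraries and 695 CPM in the control, with 0 of the 8 at 0 in any library, and their part in the result was not tested. Mural-like minus fibroblast-like gave a log2 difference of the OSA effect on Ccl11 of 1.33 ± 0.30 (edgeR adjusted p = 0.473). Between those classes 0 of 8 members and 0 of 17350 genes were called (0%), with 1 member and 1150 genes at an unadjusted p under 0.05.

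Tenocyte-like cells, which build tendon, had less Ccl2 and Ccl11 in every OSA library, and neither was called. Ccl2 was at 34.98, 45.7 and 44.7 CPM in the OSA libraries and 76.3 CPM in the control. Ccl11 was at 32.8, 56.0 and 29.0 CPM in the OSA libraries and 90.9 CPM in the control. The groups do not overlap for either gene, and 36.0% of 9987 genes with at least 10 UMIs in every library of the class were lower in every OSA library. The log2 differences were -0.77 ± 0.27 and -1.11 ± 0.33 (edgeR adjusted p = 0.998 and 0.894). In the class 0 of 8 members were called by edgeR or DESeq2, beside 2 of 12691 genes for edgeR (0.0158%) and 3 for DESeq2 (0.0236%), and 5 members and 574 genes reached an unadjusted p under 0.05. In Schwann-like cells, which sheathe nerve fibres, 0 of 8 members were called by edgeR or DESeq2, beside 4 of 13010 genes for edgeR (0.0307%), and 3 members and 439 genes had an unadjusted p under 0.05. Without OSA replicate 1, Ccl6 was called there at 2.22 ± 0.48 (edgeR adjusted p = 0.00268), beside 35 of 11701 genes (0.299%). Ccl8 in Schwann-like cells was at 6.60, 3.36 and 6.62 CPM in the OSA libraries and 0.722 CPM in the control, from 31, 6 and 10 UMIs in the OSA libraries and 3 in the control. No member reached the count filter in myofibre-like cells, a class in which 106 of 5441 genes were called (1.95%).

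Macrophage-like cells also carried Ccl2, Ccl7 and Ccl8, with 16.2%, 17.1% and 21.2% of the Ccl2 UMIs in the OSA libraries and 13.1% in the control. In OSA replicate 3 the unnamed Saa3 cluster held more than they did of all 3 genes. Ccl2 was at 225, 449 and 112 CPM in the OSA libraries and 634 CPM in the control. Ccl7 was at 305, 599.9 and 127 CPM in the OSA libraries and 658 CPM in the control. The control was the highest for both, with OSA replicate 2 next and OSA replicate 3 the lowest. In this class 36.5% of 8929 genes with at least 10 UMIs in every library were lower in every OSA library. The log2 difference was -1.27 ± 0.67 for Ccl2 and -0.93 ± 0.81 for Ccl7 (edgeR adjusted p = 0.425 and 0.641). In the class 0 of 9 members were called by edgeR or DESeq2, beside 238 of 12142 genes for edgeR (1.96%) and 302 for DESeq2 (2.49%), and 1 member, Ccl4, and 2046 genes had an unadjusted p under 0.05. Without OSA replicate 2, Ccl2 and Ccl7 were called at -1.85 ± 0.34 and -1.55 ± 0.34 (edgeR adjusted p = 2.34e-06 and 0.000180), beside 1289 of 12077 genes (10.7%).

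The makeup of the macrophage-like class differed between the control and the OSA libraries. The cluster led by Retnla and Folr2, genes of macrophages resident in tissue, held 23.6%, 26.6% and 10.0% of them in the OSA libraries and 71.4% in the control. In that cluster Ccl2 was at 724, 814 and 637 CPM in the OSA libraries and 655 CPM in the control, inside the OSA range. Ccl7 was at 913.5, 1291 and 774 CPM in the OSA libraries and 836 CPM in the control, again inside. The log2 differences within the cluster were 0.15 ± 0.27 for Ccl2 and 0.24 ± 0.28 for Ccl7 (edgeR adjusted p = 0.9999 each). In a cluster led by Cd74 and H2-Eb1, genes of antigen presentation, Ccl2 was at 440, 760.5 and 679 CPM in the OSA libraries and 829 CPM in the control. It held 18.8%, 18.4% and 8.35% of macrophage-like cells in the OSA libraries and 12.3% in the control.

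**Figure D4:**
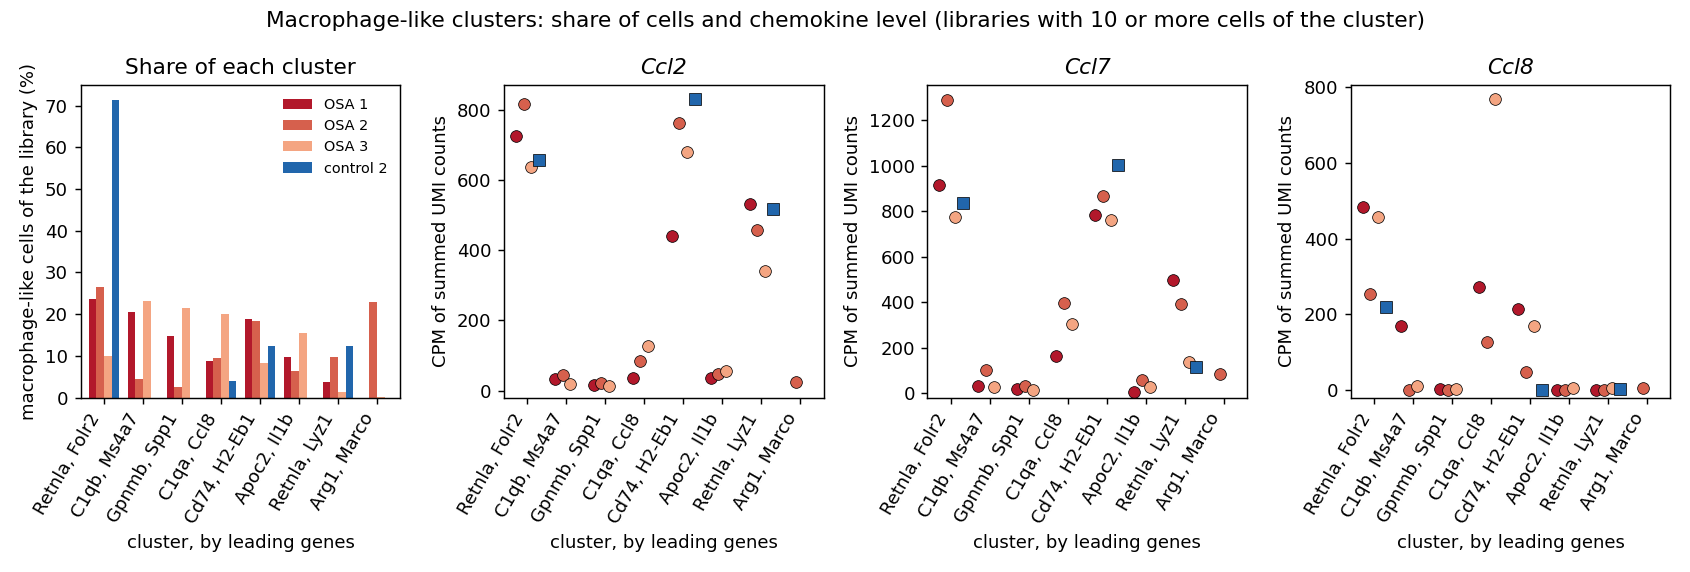
Left panel, share of each library's macrophage-like cells (y axis, percent) in 8 clusters named by their leading genes, as bars for OSA replicates 1 to 3 and control replicate 2; other panels, level of Ccl2, Ccl7 and Ccl8 (y axis, CPM) in each cluster, with circles for OSA and squares for control, for libraries with at least 10 cells of the cluster. Ccl2 in the Retnla and Folr2 cluster was at 637 to 814 CPM in OSA and 655 CPM in control, and it was at most 127 CPM in OSA in the 5 clusters that held few or no control cells.

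Macrophage-like clusters that were nearly absent from the control carried little Ccl2. A cluster led by C1qb, Ms4a7 and Apoe held 20.6%, 4.35% and 23.1% of macrophage-like cells in the OSA libraries and 0% in the control, with Ccl2 at 32.8, 43.45 and 18.97 CPM in OSA replicates 1, 2 and 3. A cluster led by Gpnmb and Spp1 held 14.7%, 2.42% and 21.5% in the OSA libraries and 0% in the control, with Ccl2 at 15.8, 21.7 and 12.6 CPM in OSA replicates 1, 2 and 3. A cluster led by Apoc2 and Il1b held 9.64%, 6.28% and 15.5% in the OSA libraries and 0% in the control, with Ccl2 at 35.1, 45.7 and 54.6 CPM in OSA replicates 1, 2 and 3. In all 3 of these clusters Ccl9 stood at 348 to 734 CPM over the OSA libraries. A cluster led by Arg1 and Marco came almost wholly from OSA replicate 2, with 95 cells there, and had Ccl2 at 23.1 CPM.

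Ccl8 was itself among the leading genes of a further macrophage-like cluster, beside C1qa and Pf4. It held 8.88%, 9.42% and 19.9% of macrophage-like cells in the OSA libraries and 3.94% in the control, which is 8 control cells. Ccl8 there was at 272, 127 and 767 CPM in OSA replicates 1, 2 and 3, from 15, 9 and 393 UMIs, so OSA replicate 3 supplied most of it. In the Retnla and Folr2 cluster Ccl8 was at 484, 254 and 456 CPM in the OSA libraries and 219.5 CPM in the control, higher in every OSA library, as were 25.1% of 5805 genes with at least 10 UMIs in every library of the cluster, but not called (log2 difference of 0.87 ± 0.29, edgeR adjusted p = 0.301). Over the whole class Ccl8 was at 150, 76.8 and 79.6 CPM in the OSA libraries and 138 CPM in the control, which lay inside the OSA range (log2 difference of -0.38 ± 0.38, edgeR adjusted p = 0.651).

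Ccl6 in macrophage-like cells varied little between libraries. Ccl9 was higher there in every OSA library, as were 30.7% of 8929 genes with at least 10 UMIs in every library of the class, and was not called. Ccl6 was at 1387, 1498 and 1332 CPM in the OSA libraries and 1453 CPM in the control, and averaged 1406 ± 84.5 CPM in OSA (SD, n = 3). The log2 difference was 0.01 ± 0.32 (edgeR adjusted p = 0.993). Ccl9 was at 642, 651 and 550.2 CPM in the OSA libraries and 482 CPM in the control (log2 difference of 0.40 ± 0.32, edgeR adjusted p = 0.545). In the Retnla and Folr2 cluster Ccl9 was at 964, 792 and 706 CPM in the OSA libraries and 459 CPM in the control. The control lay below every OSA library there, at a log2 difference of 0.84 ± 0.29 that was not called (edgeR adjusted p = 0.307). The noncoding gene E230016K23Rik overlaps Ccl6, and how the counting treated strand is not given in the sources used here. It had 40, 64 and 59 UMIs in the OSA libraries and 26 in the control, beside 6779, 7137 and 18988 UMIs of Ccl6 in the OSA libraries and 2653 in the control.

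Ccl4 and Ccl3 in macrophage-like cells were lower in every OSA library. So were 36.5% of 8929 genes with at least 10 UMIs in every library of the class. Ccl4 was at 547, 450.2 and 209 CPM in the OSA libraries and 779.5 CPM in the control. Its log2 difference was -0.93 ± 0.41 (edgeR adjusted p = 0.284), and it was called without OSA replicate 2, where 10.7% of genes were called, at -0.99 ± 0.35 (edgeR adjusted p = 0.0449). Ccl3 was at 200.5, 212 and 185 CPM in the OSA libraries and 249.9 CPM in the control (log2 difference of -0.27 ± 0.30, edgeR adjusted p = 0.688). In the Retnla and Folr2 cluster Ccl4 was at 876, 399 and 297 CPM in the OSA libraries and 612 CPM in the control, so the control lay inside the OSA range there.

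The OSA effect on the members was compared between macrophage-like and stromal cells directly. Between macrophage-like and fibroblast-like cells 0 of 9 members were called, beside 191 of 17185 genes (1.11%), and 1 member, Ccl3, and 2306 genes had an unadjusted p under 0.05. Between macrophage-like and endothelial-like cells 0 of 9 were called, beside 127 of 16646 genes (0.763%), and 3 members and 2279 genes had an unadjusted p under 0.05. The 3 members were Ccl3, Ccl6 and Ccl9. For these genes the stromal side of a difference is the low level described with the stromal classes, so a difference in the OSA effect on expression cannot be read from it. Between fibroblast-like and endothelial-like cells 0 of 8 members and 0 of 17782 genes were called (0%), with 4 members and 1164 genes at an unadjusted p under 0.05. DESeq2 was not run on these differences between classes.

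Neutrophil-like cells had the highest Ccl3 of any class in all 4 libraries and the highest Ccl4 in all but OSA replicate 2, where macrophage-like cells had 450.2 CPM. Ccl3 was at 4536, 557 and 7751 CPM in the OSA libraries and 4127 CPM in the control. Ccl4 was at 3875, 349 and 5934 CPM in the OSA libraries and 2779 CPM in the control. OSA replicate 2 stood far below the others, and the control lay inside the OSA range for both genes. OSA minus control on the log2 scale was 0.44 ± 1.35 for Ccl3 and 0.67 ± 1.41 for Ccl4 (edgeR adjusted p = 0.946 and 0.921). In the class 0 of 6 members and 0 of 6013 genes were called by edgeR (0%), with 0 members and 367 genes at an unadjusted p under 0.05, and DESeq2 called 0 members.

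The makeup of the class differed between libraries. In OSA replicate 2, 40.8% of neutrophil-like cells lay in a cluster led by Ngp, Camp and Ltf, granule genes of maturing neutrophils, which held 0% in OSA replicate 1 and in the control and 0.4065% in OSA replicate 3. Ccl3 in that cluster was at 98.5 CPM in OSA replicate 2. A cluster led by Il36g, Acod1 and Ccl3 itself held 50%, 9% and 74.0% of neutrophil-like cells in the OSA libraries and 9.52% in the control. Ccl3 in it was at 6980, 5731 and 9366 CPM in OSA replicates 1, 2 and 3. The third cluster, led by Retnlg and S100a9, held 50%, 50.2% and 25.6% in the OSA libraries and 90.5% in the control.

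Within the Retnlg and S100a9 cluster Ccl3 and Ccl4 were lower in every OSA library, in a comparison added after the data were seen and resting on 38 control cells. Ccl3 was at 1212, 535 and 1707 CPM in the OSA libraries and 3687 CPM in the control. Ccl4 was at 810.0, 460 and 844 CPM in the OSA libraries and 2371 CPM in the control. The log2 differences were -1.55 ± 0.49 and -1.62 ± 0.36 (edgeR adjusted p = 0.518 and 0.275). In this cluster 49.2% of 1065 genes with at least 10 UMIs in every library were lower in every OSA library, and edgeR called 0 of 2776 genes (0%), with 219 at an unadjusted p under 0.05, 2 of them members. Ccl6 over the whole class was at 1156, 1003 and 562 CPM in the OSA libraries and 2428 CPM in the control, lower in all 3, as were 55.5% of 1311 genes with at least 10 UMIs in every library of the class (log2 difference of -1.11 ± 0.57, edgeR adjusted p = 0.762). It was called without OSA replicate 2 at -1.30 ± 0.37 (edgeR adjusted p = 0.0302), beside 88 of 5171 genes (1.70%). In the Retnlg and S100a9 cluster its log2 difference was -0.11 ± 0.35 (edgeR adjusted p = 0.923).

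Ccl4 fell in T and NK-like cells, and this was the single call among 85 tests of a member in a class or over all cells. It was at 295, 264 and 127 CPM in the OSA libraries and 746.5 CPM in the control, and averaged 229 ± 89.3 CPM in OSA (SD, n = 3). All 3 OSA libraries lay below the control, with OSA replicate 3 the lowest, as for 22.8% of 5233 genes that were lower in every OSA library of the class (at least 10 UMIs in every library). The log2 difference was -1.82 ± 0.31 (edgeR adjusted p = 0.00190), and without OSA replicates 1, 2 or 3 it was -2.06, -1.94 and -1.54 and still called, beside 2.86%, 1.38% and 4.56% of genes. It was 1 of 8 members tested, beside 141 of 7790 genes in the class (1.81%), and DESeq2 called it too (DESeq2 adjusted p = 0.00358), beside 23 genes (0.295%). After thinning to 1000 UMIs per cell a Ccl4 UMI was found in 10.6%, 8.05% and 5.71% of cells in the OSA libraries and 21.1% in the control. Before thinning these shares were 15.2%, 10.3% and 8.60% in the OSA libraries and 32.8% in the control, at median depths of 3989, 5235 and 3452.5 UMIs in the OSA libraries and 4048.5 in the control. Thinned endothelial-like cells had a Ccl4 UMI in 0.692%, 0.418% and 0.990% of cells in the OSA libraries and 0.188% in the control.

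The makeup of the T and NK-like class differed too, and Ccl4 was not called in the cytotoxic cells or in the rest. A cytotoxic cluster led by Ccl5, Gzma and Nkg7, genes of NK and killer T cells, held 14.3%, 13.8% and 8.06% of the class in the OSA libraries and 30.5% in the control. Within it Ccl4 was at 695, 1513 and 683 CPM in the OSA libraries and 2294 CPM in the control, lower in all 3, as were 27.9% of 932 genes with at least 10 UMIs in every library of the cluster, and not called (log2 difference of -1.16 ± 0.43, edgeR adjusted p = 0.327, from 15, 12 and 15 OSA cells and 39 control cells). In the class without that cluster the log2 difference was -1.61 ± 1.55 (edgeR adjusted p = 0.836). Another cluster, led by Scart1 and with Trdc of gamma delta T cells among its leading genes, held 20%, 27.6% and 30.1% of the class in the OSA libraries and 2.34% in the control, which is 3 cells. Without it the Ccl4 difference was -1.44 ± 0.34 and not called (edgeR adjusted p = 0.136), beside 14 of 7039 genes (0.199%), an alternative chosen after the data were seen. With called doublets kept in the class it was -1.29 ± 1.00 (edgeR adjusted p = 0.860). Macrophage markers in T and NK-like cells summed to 353, 48.4 and 445 CPM in the OSA libraries and 35.4 CPM in the control. In OSA replicates 1 and 3 all 8 markers were above 0, while 3 were at 0 in OSA replicate 2 and 2 in the control, and their part in the result was not tested.

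The other members in T and NK-like cells were not called. Ccl3 was at 197, 123 and 63.4 CPM in the OSA libraries and 166 CPM in the control, inside the OSA range. Ccl11 was at 18.7, 86.7 and 13.3 CPM in the OSA libraries and 8.84 CPM in the control, and it was called without OSA replicate 1 and without OSA replicate 3, at log2 differences of 2.29 ± 0.63 and 2.43 ± 0.65 (edgeR adjusted p = 0.0149 and 0.00981), beside 2.86% and 4.56% of genes. Fibroblast markers in these cells summed to 404, 2073 and 749 CPM in the OSA libraries and 294 CPM in the control, highest like Ccl11 in OSA replicate 2, and their part in the result was not tested. Ccl8 had 1, 2 and 60 UMIs in the OSA libraries and 1 in the control, and it was called without OSA replicate 1 at 4.56 ± 0.86 (edgeR adjusted p = 1.88e-05), beside 222 of 7759 genes (2.86%).

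Ccr2 was barely detected. Over all kept cells it had 36, 39 and 35 UMIs in the OSA libraries and 8 in the control. Its level was 0.480, 0.553 and 0.455 CPM in the OSA libraries and 0.121 CPM in the control, higher in every OSA library (log2 difference of 2.12 ± 0.52, edgeR adjusted p = 0.989). Monocyte-like cells had the highest Ccr2 level, at 23.7, 11.8 and 8.73 CPM in the OSA libraries from 8, 11 and 5 UMIs. In the class sums all 9 listed monocyte markers were above 0 in every library. The cluster led by Plac8 and Ly6c2 was named on 6 of them. The cluster led by Top2a and Prtn3 was named on 5 and also met 8 macrophage markers. Among the 20 control monocyte-like cells Ccr2 had 0 UMIs, and a limit of 3 counts allows up to 25.1 CPM, so a difference was not detectable at this depth. The monocyte-like cells of OSA replicates 1, 2 and 3 had median depths of 6992.5, 8428 and 6216.5 UMIs. Their low Ccr2 counts are not read as absence of the gene, and why the counts were low was not tested. In macrophage-like cells Ccr2 was at 5.05, 5.57 and 1.57 CPM in the OSA libraries and 4.86 CPM in the control, inside the OSA range (log2 difference of -0.37 ± 0.83, edgeR adjusted p = 0.865).

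Monocyte-like and dendritic-like cells were too few in the control, with 20 and 13 cells, to be tested. Monocyte-like cells were 0.289%, 0.671% and 0.598% of kept cells in the OSA libraries and 0.151% in the control. With CC family genes allowed in clustering, cells that were macrophage-like here were named monocyte-like, and the shares were 0.539%, 0.859% and 2.25% in the OSA libraries and 0.151% in the control. In the monocyte-like cells named without those genes, Ccl6 was at 778, 598 and 814 CPM in the OSA libraries and 418 CPM in the control. Ccl9 was at 449, 324 and 342 CPM in the OSA libraries and 176 CPM in the control. Both were higher in every OSA library, as were 18.0% of 2270 genes with at least 10 UMIs in every library of the class. Ccl7 was at 71.0, 165 and 24.4 CPM in the OSA libraries and 443 CPM in the control. Ccl3 was at 228, 111 and 265 CPM in the OSA libraries and 335 CPM in the control. Ccl7 and Ccl3 were lower in every OSA library, as were 49.5% of those genes. For Ccl2 (449, 253 and 190 CPM in the OSA libraries and 226 CPM in the control) and Ccl4 (556, 276 and 398 CPM in the OSA libraries and 276 CPM in the control) the control lay inside the OSA range. The cluster led by Top2a and Prtn3, with genes of dividing cells, held 15.9%, 56.1% and 22.0% of monocyte-like cells in the OSA libraries and 15% in the control. In dendritic-like cells Ccl4 was at 509, 352 and 438 CPM in the OSA libraries and 597.5 CPM in the control, and Ccl9 was at 251, 192 and 234 CPM in the OSA libraries and 182 CPM in the control.

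Outside immune cells, Ccl3, Ccl4, Ccl6 and Ccl9 stood far below their levels in macrophage-like cells in all 7 stromal classes. Over these classes Ccl6 lay between 6.82 and 12.7 CPM in OSA replicate 1, 10.8 and 20.2 CPM in OSA replicate 2, 21.8 and 33.5 CPM in OSA replicate 3, and 3.05 and 5.07 CPM in the control. Ccl9 lay between 2.98 and 4.52 CPM in OSA replicate 1, 2.74 and 6.35 CPM in OSA replicate 2, 7.34 and 11.5 CPM in OSA replicate 3, and 0.593 and 2.41 CPM in the control. For both genes each OSA range lay above the control range, those of OSA replicates 1 and 2 overlapped, and that of OSA replicate 3 was the highest.

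Ccl3 and Ccl4 were low in the stromal classes as well. Ccl3 lay between 2.17 and 4.67 CPM in OSA replicate 1, 1.34 and 5.08 CPM in OSA replicate 2, 6.76 and 8.39 CPM in OSA replicate 3, and 0 and 1.78 CPM in the control. Ccl4 lay between 2.02 and 6.19 CPM in OSA replicate 1, 3.29 and 6.08 CPM in OSA replicate 2, 7.29 and 13.1 CPM in OSA replicate 3, and 1.19 and 2.61 CPM in the control. The control range overlapped that of OSA replicate 2 for Ccl3 and that of OSA replicate 1 for Ccl4, while OSA replicate 3 stood above the other libraries for both.

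Markers of immune cells were also counted in the stromal classes. The 8 macrophage markers summed to 50.4 to 80.7 CPM in OSA replicate 1, 43.9 to 72.9 CPM in OSA replicate 2, 145 to 172 CPM in OSA replicate 3 and 29.0 to 46.1 CPM in the control. OSA replicate 3 was the highest in them, as it was for the 4 chemokines. The neutrophil markers summed to 29.1 to 36.5 CPM in OSA replicate 1, 558 to 831 CPM in OSA replicate 2, 36.4 to 70.3 CPM in OSA replicate 3 and 5.14 to 9.76 CPM in the control, so that OSA replicate 2 stood far above the rest. RNA free in a cell suspension is known to reach every class of a droplet library. The stromal values of these 4 genes are not read as expression by stromal cells, and the part of free RNA in them was not tested.

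**Figure D5:**
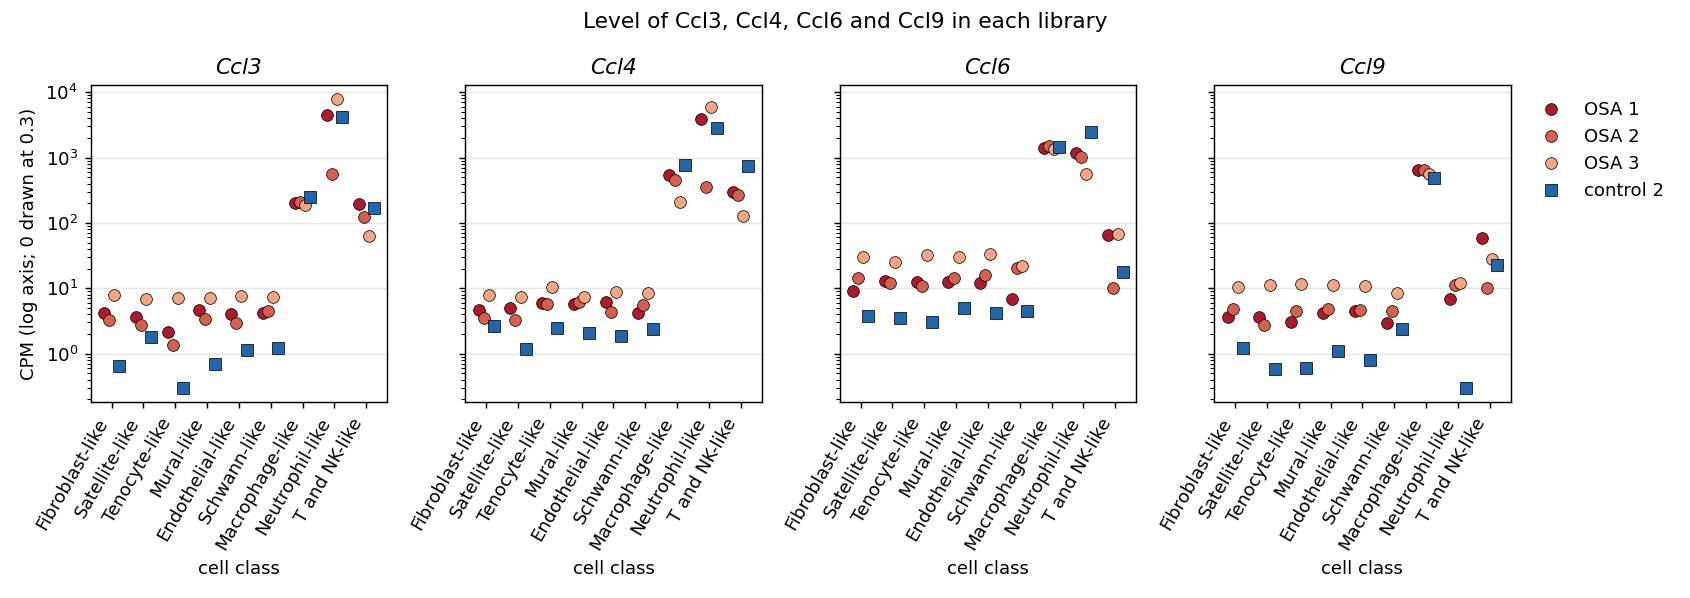
Level of Ccl3, Ccl4, Ccl6 and Ccl9 (y axis, CPM on a log axis, 0 drawn at 0.3) in 9 cell classes (x axis), with circles for OSA replicates 1 to 3 and squares for control replicate 2. Ccl6 in the stromal classes lies at 6.82 to 33.5 CPM in OSA and 3.05 to 5.07 CPM in the control, while macrophage-like cells stand at 1332 to 1498 CPM in OSA and 1453 CPM in the control.

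The same 4 genes gave large positive log2 differences in the stromal fits, and edgeR called none. In mural-like cells Ccl3 was at 4.67, 3.44 and 7.18 CPM in the OSA libraries and 0.701 CPM in the control (log2 difference of 2.87 ± 0.57, edgeR adjusted p = 0.123). In fibroblast-like cells Ccl3 was at 4.24, 3.29 and 7.76 CPM in the OSA libraries and 0.639 CPM in the control (log2 difference of 3.03 ± 0.62, edgeR adjusted p = 0.130). Within the Smoc2 and Myoc cluster of fibroblast-like cells it was called at 3.34 ± 0.69 (edgeR adjusted p = 0.0459), beside 22 of 15043 genes (0.146%). In endothelial-like cells Ccl9 was at 4.52, 4.61 and 10.7 CPM in the OSA libraries and 0.813 CPM in the control (log2 difference of 3.06 ± 0.78, edgeR adjusted p = 0.9035).

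Endothelial-like cells had 0 of 8 members and 0 of 16423 genes called by edgeR (0%), with 4 members and 816 genes at an unadjusted p under 0.05, and DESeq2 called Ccl9, beside 37 genes (0.225%). All 8 members tested there had a positive log2 difference, with a median of 1.98 beside 0.02 over all genes tested. The 8 include Ccl3, Ccl4, Ccl6 and Ccl9, whose stromal values are not read as expression. For that reason the median is not read as a rise of the members in endothelial-like cells. In the same fit the macrophage markers C1qa, Csf1r and C1qb had log2 differences of 1.32 ± 0.87, 1.93 ± 1.496 and 1.94 ± 1.16. The neutrophil markers S100a9, Retnlg and S100a8 had 5.19 ± 3.47, 6.46 ± 5.15 and 8.10 ± 6.19. None of these markers was called (edgeR adjusted p = 0.956 each). Neutrophil markers were highest in OSA replicate 2, while Ccl3, Ccl4, Ccl6 and Ccl9 were highest in OSA replicate 3. The part of free RNA in the median was not tested. Without OSA replicate 1, 5 members were called in endothelial-like cells, beside 304 of 16186 genes (1.88%). There 3 were called without OSA replicate 2, beside 40 of 16278 genes (0.246%), and 3 without OSA replicate 3, beside 122 of 16303 genes (0.748%). Leaving out OSA replicates 1, 2 and 3 in turn gave 5, 3 and 5 calls in mural-like cells, beside 0.872%, 0.549% and 0.920% of genes. In fibroblast-like cells it gave 2, 3 and 0 calls, beside 0.468%, 0.705% and 0.0485% of genes. In lymphatic endothelial-like cells 0 of 5 members were called by edgeR or DESeq2, beside 12 of 9800 genes for edgeR (0.122%) and 3 for DESeq2 (0.0306%), and 1 member, Ccl6, and 569 genes had an unadjusted p under 0.05. Without OSA replicate 1, Ccl6 and Ccl7 were called there at 2.66 ± 0.62 and 1.73 ± 0.49 (edgeR adjusted p = 0.00280 and 0.0378), beside 139 of 9499 genes (1.46%). There Ccl2 was at 53.5, 92.7 and 15.7 CPM in the OSA libraries and 14.5 CPM in the control, with OSA replicates 1 and 2 apart from the other libraries.

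The genes most like each member were sought over 51 sums of a library and class, among 9594 genes with a mean of at least 10 CPM, by Pearson's r of log2(CPM + 1). The sums share libraries and depth, so r is a description. Ccl3 was most like Ccl4 (0.96), Osm (0.95) and Tyrobp (0.94), and Ccl4 most like Cd53 (0.97), Ccl3 and Ptprc (0.96 each). Ccl6 was most like Alox5ap, Cd300c2 and Fcgr3 (0.96 each), and Ccl9 like Gm56663 (0.95), Aif1 (0.94) and Ms4a6d (0.92). Ccl2 was most like B4galt5 (0.83), Tubb6 (0.81) and Ccl7 (0.80), and Ccl7 like Dtnbp1 (0.83), Ccl2 (0.80) and Tubb6 (0.77). Ccl11 was most like Tnfaip6 (0.87), Clec3b (0.86) and Gsn (0.85), and had an r of -0.38 with Ccl4 and -0.36 with Ccl6. Ccl8 was most like Ecm1 and Pld3 (0.76 each) and Folr2 (0.72), and Ccr2 like Cd48 (0.89), Gm57204 (0.88) and Ms4a6c (0.87).

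Other genes of the family were tested in the same fits as fixed lists. Of 12 other CC ligands, Ccl5, which killer and memory T cells make, fell in T and NK-like cells, at 2228, 2115 and 2649 CPM in the OSA libraries and 6892 CPM in the control (log2 difference of -1.65 ± 0.19, edgeR adjusted p = 7.29e-10). Ccl5 leads the cytotoxic cluster, whose share of the class was lower in every OSA library. Within that cluster Ccl5 was at 7776, 9960 and 12916 CPM in the OSA libraries and 18315 CPM in the control, and was not called (log2 difference of -0.73 ± 0.45, edgeR adjusted p = 0.837). In the class without it the difference was -1.89 ± 0.60 and not called (edgeR adjusted p = 0.489), while without the Scart1 cluster it was -1.22 ± 0.23 and called (edgeR adjusted p = 0.0278).

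Ccl5 also fell in satellite-like cells and was called, at 9.08, 4.94 and 5.07 CPM in the OSA libraries and 27.9 CPM in the control (log2 difference of -2.09 ± 0.43). There 6 or 7 of the 9 T and NK markers were at 0 in each library, and the part of T and NK-like cells in the result was not tested. In macrophage-like cells Ccl24, an eotaxin of alternatively activated macrophages, fell, at 156, 227 and 76.7 CPM in the OSA libraries and 694 CPM in the control (log2 difference of -2.16 ± 0.42, edgeR adjusted p = 0.0425). Ccl24 is a leading gene of the Retnla and Folr2 cluster, whose share of macrophage-like cells was lower in every OSA library than in the control. Within that cluster it was at 614, 641 and 588 CPM in the OSA libraries and 1056.5 CPM in the control, lower in all 3, as were 22.3% of 5805 genes there, and not called (log2 difference of -0.78 ± 0.26, edgeR adjusted p = 0.263).

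Ccl17, a ligand of Ccr4, fell in macrophage-like cells too, at 5.35, 3.18 and 2.96 CPM in the OSA libraries and 16.7 CPM in the control (log2 difference of -2.08 ± 0.51, edgeR adjusted p = 0.0474). In the Retnla and Folr2 cluster it had 5, 1 and 12 UMIs in the OSA libraries and 4 in the control. The control level lay inside the OSA range there, and the gene was not called (edgeR adjusted p = 0.9999). Of the 24 macrophage-like Ccl17 UMIs of the control, 17 lay in a cluster led by Retnla and Lyz1, which held 3.81%, 9.66% and 1.42% of the class in the OSA libraries and 12.3% in the control. Ccl17 in it was at 11.4, 2.28 and 54.0 CPM in the OSA libraries, from 2, 1 and 13 UMIs, and 44.7 CPM in the control, inside the OSA range. These were 4 calls of 64 tests of the list, all of them lower in OSA. They were 1 of 4 tests in T and NK-like cells (beside 1.81% of genes), 2 of 7 in macrophage-like cells (1.96%) and 1 of 5 in satellite-like cells (0.0907%).

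Of 10 other receptors, 1 rose and 1 fell in 31 tests, both of them among 5 tests in T and NK-like cells (beside 1.81% of genes). Ccr7, which guides T cells to lymph nodes, fell, at 56.0, 40.3 and 41.3 CPM in the OSA libraries and 142 CPM in the control (log2 difference of -1.72 ± 0.36, edgeR adjusted p = 0.00145). The cluster led by Trbc2 and Ccl5 held 33.3%, 19.5% and 42.5% of the class in the OSA libraries and 51.6% in the control, and Ccr7 in it was at 158, 183 and 82.5 CPM in the OSA libraries and 258 CPM in the control. Without the Scart1 cluster Ccr7 was at a log2 difference of -1.35 ± 0.37 and not called (edgeR adjusted p = 0.215), and without the cytotoxic cluster it was called at -2.09 ± 0.35 (edgeR adjusted p = 0.000688).

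Ccr6, the receptor of Ccl20, rose, with 4, 16 and 18 UMIs in the OSA libraries and 0 in the control, at least 4.22-fold higher with 3 counts set as the control floor (edgeR adjusted p = 0.0301). The Trbc2 and Ccl5 cluster held 4, 3 and 11 of these UMIs in OSA replicates 1, 2 and 3, at 26.3, 42.3 and 41.3 CPM, and 0 in 66 control cells, where 3 counts would be 9.94 CPM. The Scart1 cluster, of which the control had 3 cells, held 0, 8 and 7 of them in OSA replicates 1, 2 and 3. Without the Scart1 cluster Ccr6 did not reach the count filter. Without the cytotoxic cluster, which held 0 Ccr6 UMIs in all 4 libraries, it was not called (edgeR adjusted p = 0.0846). Of the 4 atypical receptors and decoys and the 10 genes of monocyte growth and attachment, edgeR called 0 in 30 and 88 tests.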

How the data were processed

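Genioglossus cells were profiled by droplet RNA sequencing. The authors deposited raw UMI counts per gene and barcode, made with Cell Ranger 9.0.1 per the file headers, on GRCm39 (mm39) per the submitters' processing notes. Cells with at least 300 genes, at least 500 UMIs and at most 20% mitochondrial UMIs were kept, and doublets called by Scrublet in scanpy 1.11.5 were left out. Clusters came from 2000 variable genes without 36 CC family genes, 30 principal components and Leiden at a resolution of 1, in double precision with rounded components so that they repeat. Clusters were named from fixed marker lists. The number of leading genes that a marker had to stand in, 100, was set after the clusters were seen.

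Counts were summed per library and class (at least 30 cells) and tested with edgeR 4.0.16's quasi-likelihood test in R 4.3.3, with TMM factors, filterByExpr and Benjamini-Hochberg adjustment over all genes of a fit at a threshold of 0.05, leaving 2 residual degrees of freedom. Differences between classes were tested in 1 fit over both, with library as a block. The SE beside an edgeR log2 difference was not estimated directly. It is the absolute log2 difference divided by the square root of the F statistic of the test. DESeq2 1.42.0, other scaling and filters, kept doublets, thinned sums, other clusterings and leaving out each OSA library were alternatives. Fits with 1 OSA library left out had 1 residual degree of freedom, so their small adjusted p-values rest on fewer libraries than the full fit. Tested on simulated data with the macrophage-like design (11703 genes), the test called 2 of 91 genes changed by 2-fold and 45 of 86 changed by 4-fold. With the fibroblast-like design (16429 genes) it called 10 of 97 and 79 of 98. Of its 49 and 99 calls, 2 and 10 were genes that had not been changed.

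The members and gene lists were chosen with earlier results of these data known. Named genes are all 9 members in every class, list genes that passed the threshold, and for each member the 3 genes with the highest Pearson's r. Limits on a count of 0 are 3 counts and cover counting error only.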

Additional observations from a re-analysis of the deposited data

Results flagged for a closer look

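Directions were compared across classes where every library had at least 10 UMIs of a gene. With 1 control, not overlapping is common. Of all genes that met this minimum, 22.8% to 55.5% in a class were lower in every OSA library, and 8.01% to 32.8% were higher. Ccl2 was lower in every OSA library than in the control in 4 classes (fibroblast-like, macrophage-like, satellite-like and tenocyte-like) and higher in 3 (endothelial-like, lymphatic endothelial-like and Schwann-like). Ccl7 was lower in 3 classes (macrophage-like, satellite-like and tenocyte-like) and higher in 3 (endothelial-like, lymphatic endothelial-like and mural-like). Ccl11 was lower in 5 classes (fibroblast-like, macrophage-like, satellite-like, Schwann-like and tenocyte-like) and higher in 3 (endothelial-like, lymphatic endothelial-like and mural-like). Ccl3 was lower in 1 class (macrophage-like) and higher in 2 (endothelial-like and fibroblast-like). Ccl4 was lower in 2 classes (macrophage-like and T and NK-like) and higher in 4 (endothelial-like, fibroblast-like, mural-like and Schwann-like). Ccl6 was lower in 1 class (neutrophil-like) and higher in 4 (endothelial-like, fibroblast-like, mural-like and Schwann-like). Ccl9 was lower in 0 and higher in 4 (endothelial-like, fibroblast-like, macrophage-like and mural-like). Ccl8 met the minimum in 3 classes and was lower in 0 and higher in 1 (mural-like). Some of these gaps were narrow and at low levels. Ccl11 in endothelial-like cells was at 14.5, 18.6 and 14.9 CPM in the OSA libraries and 14.4 CPM in the control, and Ccl7 there was at 8.91, 15.6 and 12.5 CPM in the OSA libraries and 8.64 CPM in the control. Ccl2 in Schwann-like cells was at 22.8, 23.5 and 19.8 CPM in the OSA libraries and 19.7 CPM in the control. Ccl8 in mural-like cells was at 2.01, 0.880 and 4.79 CPM in the OSA libraries and 0.857 CPM in the control, from 11 UMIs both in OSA replicate 2 and in the control. The stromal values of Ccl3, Ccl4, Ccl6 and Ccl9, and that of Ccl8 in mural-like cells, are not read as expression by stromal cells.

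Most of these differences between classes were not tested. Of the 5 pairs of classes that were tested, 3 were planned and 2 were added. The 1 called difference was that of Ccl7 between satellite-like and fibroblast-like cells, at -1.03 on the log2 scale. That pair was added after the values had been seen, and the difference was no longer called without OSA replicate 3.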

How the results depend on the processing

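Of 1152 log2 differences of single members recomputed under an alternative, 1063 kept their direction or stayed uncalled, 84 became called, 5 were no longer called and 0 called values changed sign, while 28 uncalled values did. Without a filter on low counts 4 members were called in endothelial-like, 2 in fibroblast-like, 1 in macrophage-like, 5 in mural-like, 2 in satellite-like and 2 in tenocyte-like cells, against 0 in each, beside 0.651%, 0.458%, 3.74%, 0.458%, 0.369% and 0.147% of all genes in those classes. DESeq2 called 1 in endothelial-like, 1 in fibroblast-like and 2 in mural-like cells, beside 0.225%, 0.157% and 0.143%. The fibroblast-like cluster with most control cells gave 1 call (0.146% of all genes), and mural-like sums thinned to equal totals gave 1 (0.0985%). The Ccl4 call in T and NK-like cells was lost, leaving 0, with doublets kept, in the cytotoxic cluster alone, in the class without it and in the class without the Scart1 cluster. The cause was not tested.

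With each OSA library left out in turn, the share of all genes called moved too, without OSA replicates 1, 2 and 3 to 1.00%, 8.97% and 1.33% for macrophage-like minus endothelial-like, 2.09%, 7.94% and 2.36% for macrophage-like minus fibroblast-like, 0.325%, 0.00570% and 0.136% for fibroblast-like minus endothelial-like, 0.574%, 0.639% and 0.169% for satellite-like minus fibroblast-like and 0%, 0% and 0% for mural-like minus fibroblast-like cells. Members called ranged over 0 to 1 for all kept cells, 3 to 5 for endothelial-like, 0 to 3 for fibroblast-like, 0 to 2 for lymphatic endothelial-like, 0 to 3 for macrophage-like, 3 to 5 for mural-like, 0 to 1 for neutrophil-like, 0 to 3 for satellite-like, 0 to 1 for Schwann-like, 1 to 3 for T and NK-like and 0 to 0 for tenocyte-like cells. For differences between classes they ranged over 0 to 1 (fibroblast-like minus endothelial-like), 1 to 6 (macrophage-like minus endothelial-like), 0 to 3 (macrophage-like minus fibroblast-like), 0 to 0 (mural-like minus fibroblast-like) and 0 to 2 (satellite-like minus fibroblast-like). No paired analysis was possible because counts of 1 control library were read and the groups therefore share 1 replicate number. The control could not be left out. Of 52 shares of a gene's UMIs 42 moved by less than their spread or counting interval when doublets were kept. Of 50 shares of cells with a UMI, 40 moved by more than that when cells were not thinned.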
